A study of Bos taurus with 48 samples.

Results

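The genes described are 4 of the inflammatory axis that joins neutrophils to interleukin-1 (IL-1) in the blood of calves: IL1B (ENSBTAG00000001321), IL1R2 (ENSBTAG00000006343), CXCR2 (ENSBTAG00000038042) and LTB4R (ENSBTAG00000010238). They were picked by name from 24616 annotated genes because their transcription was lower in Jersey (J) than in Holstein-Friesian (H-F) calves, and all 4 were among the 12677 genes tested. The breed values below are therefore a description and carry no test. The comparisons between days within a breed and the changes of the ratio of IL1B to IL1R2 within a calf were not used to pick them. They share samples with the breed comparison, so they are not fully independent of the choice. The interaction of breed and day, also for the ratio, is a difference between breed differences. Its tests are therefore not independent of the choice either.

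IL-1 beta, the product of IL1B, is a cytokine that monocytes, macrophages and neutrophils make on contact with microbes or damaged tissue, and that drives fever and the recruitment of neutrophils. It acts through the type 1 receptor. IL1R2 encodes the type 2 receptor, a decoy that binds the cytokine but has no signalling domain, so that cytokine bound to it gives no signal, and neutrophils are a major source of this receptor. CXCR2, a receptor for ELR-positive CXC chemokines, and LTB4R, the high-affinity receptor for the lipid mediator leukotriene B4, are both G protein-coupled receptors that guide neutrophils from blood to a site of inflammation.

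Whole blood of 8 H-F and 8 J bull calves was sampled at d -14, d 1 and d 8 relative to gradual weaning, which ended with the last milk on d 0, and the poly(A) RNA of each sample was sequenced. All calves were healthy, vaccinated on arrival, housed in groups in the same place and given the same milk replacer. All H-F calves shared 1 farm of origin and the J calves came from other farms. The J calves were older and lighter on arrival and were offered concentrate freely before weaning, whereas that of H-F calves was limited to an allowance that they did not use up. Breed, farm of origin and age therefore cannot be told apart. The values are those of 15 calves (8 H-F and 7 J, 45 libraries) because the study left out 1 J calf, taken here as J calf 85, whose values are given separately. Reads counted per library ranged from 28088019 to 39095624 (median 33666332). In whole blood, fewer cells of a type and less RNA per cell cannot be told apart.

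Levels are given as CPM, read counts scaled to a common library size after TMM normalisation. Counting was not limiting for IL1B (1533 to 6622 reads per library) or CXCR2 (756 to 4736 reads), whereas LTB4R had 48 to 222 reads and IL1R2 33 to 381. The reads were not counted per length, so the levels of different genes are not compared. In the RefSeq annotation of assembly ARS-UCD2.0, CXCR2 lies beside CXCR1 and LTB4R beside LTB4R2. Only uniquely mapped reads were kept, and reads that a gene shares with such a relative or with an overlapping gene would be lost, which makes the levels of CXCR2 and LTB4R less certain.

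IL1B varied widely between calves of the same breed. H-F calves had a lowest, median and highest IL1B level of 75.8, 105.3 and 134.7 CPM at d -14, of 73.6, 110.1 and 227.9 CPM at d 1, and of 47.2, 154.1 and 202.9 CPM at d 8. The corresponding levels in J calves were 45.4, 66.8 and 124.7 CPM at d -14, 71.1, 92.7 and 138.5 CPM at d 1, and 60.4, 89.9 and 117.2 CPM at d 8. The breeds overlapped throughout, with 4, 1 and 0 of 7 J calves below the lowest H-F calf on the 3 days. At d 8 the lowest calf of all was H-F calf 27, while 5 of 8 H-F calves exceeded the highest J calf. In the order of mean levels on the log2 scale, the 3 H-F groups stood above the 3 J groups. No neighbours in that order differed by more than their SD.

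IL1R2 transcripts were divided between the breeds at d -14 and d 8, but not at d 1. Levels in H-F calves were 8.37 ± 1.69 CPM at d -14, 7.06 ± 2.14 CPM at d 1 and 7.81 ± 2.33 CPM at d 8 (SD, n = 8). In J calves they were 3.40 ± 1.57 CPM, 3.59 ± 2.11 CPM and 2.05 ± 1.20 CPM on the same days (SD, n = 7). Each J calf was below each H-F calf at d -14, when the highest J calf had 5.62 CPM and the lowest H-F calf 6.73 CPM, and again at d 8, when these were 4.43 and 4.77 CPM. At d 1, J calf 7 had 7.51 CPM, which was above several H-F calves, and 5 of 7 J calves were below the lowest H-F calf. Of all genes tested, 1.17%, 0.655% and 0.844% had breeds that did not overlap on the 3 days, in order. In the order of means on the log2 scale, the H-F group at d 1 stood above the J group at d 1 by 1.09 (pooled SD 0.622). The J group at d -14 stood above the J group at d 8 by 0.753 (pooled SD 0.714). The other neighbours did not differ by more than their SD.

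**Figure D1:**
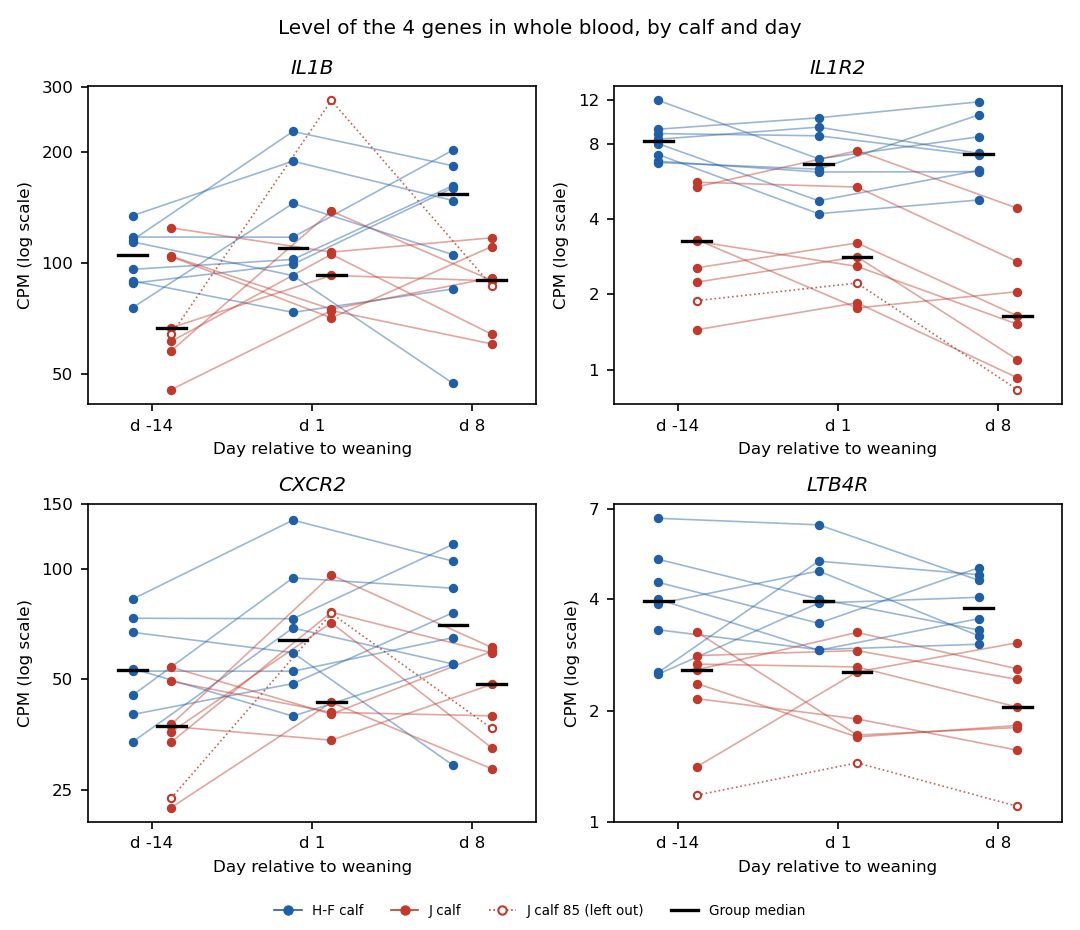
Level of IL1B, IL1R2, CXCR2 and LTB4R in CPM on a log scale (y axis) against day relative to weaning (x axis), with 1 point per calf and day, lines joining the samples of a calf and black bars at the group medians. H-F calves are blue, J calves red, and J calf 85, which was left out of the fit, is dotted with open points. IL1R2 of the J calves lies below all H-F calves at d -14 and d 8, while IL1B and CXCR2 of the breeds overlap on each day.

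CXCR2, like IL1B, overlapped between breeds and varied widely between calves. H-F calves ranged from 33.8 to 82.7 CPM (median 53.0) at d -14, from 39.7 to 135.5 CPM (median 64.0) at d 1 and from 29.2 to 116.5 CPM (median 70.4) at d 8. In J calves the ranges were 22.4 to 53.9 CPM (median 37.2), 34.1 to 96.1 CPM (median 43.2) and 28.6 to 61.1 CPM (median 48.4). On the 3 days 2, 1 and 1 of 7 J calves lay below the lowest H-F calf. In the order of means on the log2 scale, no neighbouring groups differed by more than their SD.

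LTB4R kept a narrow range of mean levels over days. Mean LTB4R levels in H-F calves were 4.05 ± 1.37, 4.17 ± 1.18 and 3.89 ± 0.722 CPM at d -14, d 1 and d 8 (SD, n = 8). Those in J calves were 2.46 ± 0.581, 2.38 ± 0.614 and 2.19 ± 0.526 CPM (SD, n = 7). The breeds overlapped on each day, with 3, 6 and 6 of 7 J calves below the lowest H-F calf on the 3 days and 6, 6 and 7 of 8 H-F calves above the highest J calf. On the log2 scale, the gap between the lowest H-F mean and the highest J mean was the only gap between neighbours to exceed the SD.

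As fold changes, IL1R2 was 2.46-fold lower in J than in H-F calves at d -14, 1.96-fold lower at d 1 and 3.80-fold lower at d 8 (log2 fold changes of -1.30, -0.97 and -1.93, with standard errors of 0.29, 0.29 and 0.30). LTB4R was 1.64-, 1.76- and 1.78-fold lower, IL1B 1.29-, 1.38- and 1.54-fold lower, and CXCR2 1.45-, 1.25- and 1.57-fold lower on these days. The log2 fold changes of IL1B were -0.37, -0.46 and -0.62 (SE 0.24 each). Those of CXCR2 were -0.54, -0.32 and -0.65 (SE 0.26 each). The values of IL1B and CXCR2 at d 1 depended on single calves: as log2 fold changes, IL1B was -0.46 but -0.15 with J calf 85 added, and CXCR2 was -0.32 but -0.12 without H-F calf 33. Of all genes tested, 4.1% passed at d -14, 3.73% at d 1 and 3.13% at d 8. Because this comparison chose the genes, nothing is read from these counts or from those under the other settings below.

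J calf 85, which was left out, had 64.1, 276.6 and 87.0 CPM of IL1B at d -14, d 1 and d 8, and its d 1 level exceeded that of each other calf. Its IL1R2 levels were 1.89, 2.22 and 0.834 CPM and its LTB4R levels 1.18, 1.44 and 1.10 CPM, and its LTB4R was the lowest of all calves on each day.

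Whether the genes changed over the weaning period was tested between days. All calves were weaned, so weaning, the growing age of the calves and the day of sampling cannot be told apart. None of the 4 passed the thresholds between any 2 days in H-F, in J or over both breeds by edgeR's quasi-likelihood test, and none passed for the interaction of breed and day. Few genes did so at all: between d -14 and d 8, 0.071% of genes passed in H-F, 0% in J and 0.245% over both breeds, and 11%, 2.19% and 10.1% had an unadjusted p under 0.05. Over both breeds 0.00789% passed between d -14 and d 1. Of the 48 combinations of a gene and a comparison, 5 had an unadjusted p under 0.05, of which 3 were of IL1R2 and 2 of CXCR2. Those of IL1R2 were from d -14 to d 8 in J, from d 1 to d 8 in J and for the interaction from d 1 to d 8, for which 2.19%, 0.402% and 2.55% of all genes had such a p. Those of CXCR2 were from d -14 to d 1 in J and over both breeds, with 2.55% and 7% of all genes. DESeq2, limma-voom with a random effect of calf and, where it could be run, edgeR's exact test called 0 of them. For IL1B the log2 fold change from d -14 to d 8 was 0.40 in H-F (SE 0.23, adjusted p = 0.518) and 0.14 in J (SE 0.25, adjusted p = 1.0), by the quasi-likelihood test with Benjamini-Hochberg adjustment. For LTB4R these changes were -0.06 (SE 0.19, adjusted p = 0.948) and -0.17 (SE 0.20, adjusted p = 1.0).

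IL1R2 had a lower mean level in J calves at d 8 than at d -14, and this change passed the thresholds in edgeR's fit with calf as a block but neither in the fit without calf nor in limma-voom. Its level was lower at d 8 than at d -14 in 7 of 7 J calves. In J calf 13, for example, it went from 1.45 to 0.930 CPM, in J calf 60 from 2.24 to 1.10 CPM and in J calf 6 from 5.62 to 2.71 CPM. Between d 1 and d 8 it was lower in 6 of 7 J calves and higher in J calf 57, and between d -14 and d 1 it was lower in 3 of 7. Across all genes, 1.98% moved the same way in each J calf from d -14 to d 8, and 1.1% were lower in each.

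Without the calf term, the log2 fold change of IL1R2 from d -14 to d 8 in J was -0.73 (SE 0.31, quasi-likelihood test, adjusted p = 1.0). With calf as a block it was -0.76 (SE 0.17, edgeR's quasi-likelihood test, adjusted p = 0.0422), and IL1R2 was 1 of the 26 genes (0.205%) that passed. With J calf 85 added the blocked adjusted p was 0.00757, and in limma-voom with a random effect of calf it was 0.307. The blocked call was lost without J calf 6, 60 or 77 (changes of -0.70, -0.73 and -0.71, adjusted p = 0.166, 0.171 and 0.149) and kept without any 1 of the other 4 J calves. From d 1 to d 8 the blocked change in J was -0.80 (adjusted p = 0.389), the smallest p of all genes in that comparison but not past the threshold. J calf 85 had a change of -1.12 from d -14 to d 8, below each of the other J calves.

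In H-F calves IL1R2 was lower at d 8 than at d -14 in 6 of 8, with a log2 fold change of -0.10 (SE 0.27, adjusted p = 0.934), or -0.13 (SE 0.13, adjusted p = 0.562) with the block. The interaction, the J change minus the H-F change, was -0.63 from d -14 to d 8 (adjusted p = 0.999) and -0.95 from d 1 to d 8 (adjusted p = 1.0) by the quasi-likelihood test. With calf as a block these were -0.63 (adjusted p = 0.507) and -0.95 (adjusted p = 0.595), where 0.0158% and 0% of all genes passed, so the change in J was not shown to differ from the change in H-F. Over both breeds the blocked change from d -14 to d 8 was -0.45 (adjusted p = 0.00932), which is under the 1.5-fold threshold.

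CXCR2 had a higher mean level on d 1 than on d -14 in both breeds, but with opposite directions among calves. From d -14 to d 1 it was higher in 4 of 7 J calves and 4 of 8 H-F calves, and the log2 fold change over both breeds was 0.46 (SE 0.18, quasi-likelihood test, adjusted p = 0.687). From d -14 to d 8 it was higher in 7 of 8 H-F calves and 5 of 7 J calves, with a change over both breeds of 0.34 (SE 0.18, adjusted p = 0.533). H-F calf 27 was the only H-F calf that was lower at d 8, with a change of -1.20 on the log2 scale.

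**Figure D2:**
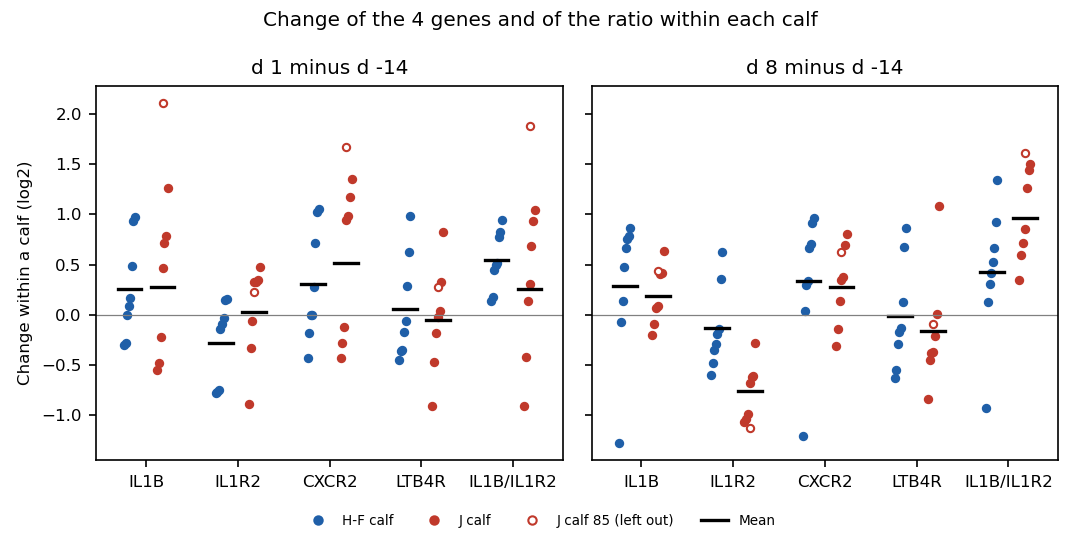
Change within a calf on the log2 scale (y axis) from d -14 to d 1 (left) and from d -14 to d 8 (right) for the 4 genes and for the ratio of IL1B to IL1R2 (x axis). Each point is a calf, H-F blue and J red, open for J calf 85, and black bars are means over the 8 H-F and 7 J calves. All J points of IL1R2 lie below 0 from d -14 to d 8, and all J points of the ratio lie above 0.

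The ratio of IL1B reads to IL1R2 reads in the same library does not depend on the library size. Since reads were not counted per length, it is no ratio of molecules, and only its differences between calves and days can be read. H-F calves had lowest, median and highest ratios of 7.40, 13.5 and 17.3 at d -14, of 14.3, 18.3 and 22.4 at d 1, and of 7.53, 16.7 and 32.8 at d 8. In J calves they were 11.4, 22.6 and 72.1 at d -14, 14.0, 32.8 and 60.7 at d 1, and 14.5, 54.7 and 119.2 at d 8. J calf 13 held the highest ratio at d -14 and d 8, and J calf 7 had the lowest J ratio at d -14 and d 8.

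The mean ratio, taken on the log2 scale, was 1.97-fold higher in J than in H-F calves at d -14, 1.61-fold higher at d 1 and 2.86-fold higher at d 8. The ratio exceeded that of the highest H-F calf in 5, 5 and 6 of 7 J calves. With J calf 85, whose ratios were 33.9, 124.5 and 104.3, the fold differences were 2.05, 1.93 and 3.15. Both genes of the ratio were chosen for their breed difference, so these values are a description.

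Over the weaning period the ratio rose in each breed between 1 pair of days. In H-F calves it rose from d -14 to d 1 in 8 of 8 calves, by 0.54 ± 0.29 on the log2 scale (SD, 1.46-fold, exact sign-flip permutation test, two-sided, p = 0.00781, which is the smallest p that 8 calves allow, adjusted p = 0.0469 over 6 comparisons). In J calves it rose from d -14 to d 8 in 7 of 7 calves, by 0.96 ± 0.45 (SD, 1.95-fold, exact p = 0.0156, which is the smallest p that 7 calves allow, adjusted p = 0.0469). The J result also held with J calf 85 (1.04, exact permutation adjusted p = 0.0234), but leaving out any 1 of the 7 J calves gave 0.871 to 1.06 with an exact permutation adjusted p of 0.0625 to 0.0938, since 6 calves allow no p below 0.0312. The J rise held a mean IL1R2 change of -0.75 and a mean IL1B change of 0.19, whereas in H-F the rise to d 1 held an IL1R2 change of -0.28 and an IL1B change of 0.26.

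The other 4 changes of the ratio did not pass. In J calves the ratio was higher at d 8 than at d 1 in 6 of 7 calves (0.71 ± 0.68, exact permutation adjusted p = 0.0938) and higher at d 1 than at d -14 in 5 of 7 (0.25 ± 0.72, exact permutation adjusted p = 0.431). In H-F calves it was higher at d 8 than at d -14 in 7 of 8 (0.42 ± 0.66, exact permutation adjusted p = 0.164). The exception was H-F calf 27, without which this change was 0.62 (exact permutation adjusted p = 0.0312). From d 1 to d 8 the H-F ratio was higher in 3 of 8 calves (-0.12 ± 0.64, exact permutation adjusted p = 0.633).

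**Figure D3:**
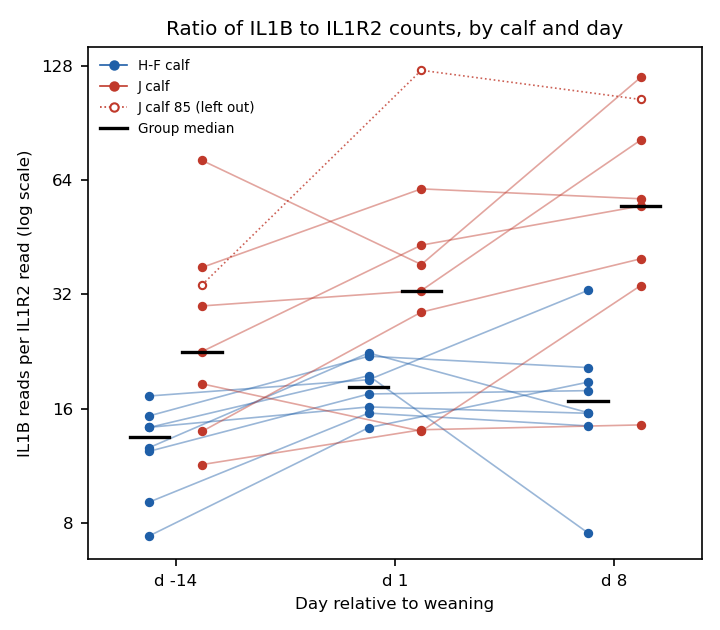
Reads of IL1B per read of IL1R2 on a log scale (y axis) in each calf against day relative to weaning (x axis), with H-F calves blue, J calves red, J calf 85 dotted with open points and black bars at the group medians. The H-F calves stay between 7.40 and 32.8. The J calves other than J calf 85 spread from 11.4 to 119.2 and are higher at d 8 than at d -14 in 7 of 7 calves. J calf 85 reaches 124.5 at d 1.

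The breeds' changes in the ratio did not differ at the threshold. From d 1 to d 8 the ratio changed by 0.83 more in J than in H-F on the log2 scale (exact permutation test of the breed labels, two-sided, p = 0.0305, adjusted p = 0.0914 over 3 comparisons). From d -14 to d 8 the difference was 0.54 (exact permutation adjusted p = 0.129), and from d -14 to d 1 it was -0.29 (exact permutation adjusted p = 0.325). Without H-F calf 48, whose ratio was the lowest at d -14, the first 2 differences were 0.90 and 0.67 (exact permutation adjusted p = 0.0411 for each), and without H-F calf 49 the first was 0.96 (exact permutation adjusted p = 0.035). These were 2 of 15 omissions for d 1 to d 8 and 1 of 15 for d -14 to d 8. With other calves left out, the exact permutation adjusted p reached 0.179 and 0.253, in order.

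Whether the 4 genes varied together among calves was tested on each calf's mean over the 3 days, within breed. None of the 12 correlations passed after adjustment. The closest was that of IL1B with CXCR2 in H-F calves (Pearson r = 0.83, exact permutation p = 0.0105, adjusted p = 0.126, n = 8), for which Spearman's rho was 0.93 (exact permutation adjusted p = 0.0268) and r without the 2 calves farthest from the median of IL1B was 0.90 (exact permutation adjusted p = 0.0167). In J calves the same genes had r = 0.49 (exact permutation adjusted p = 0.511, n = 7) and rho = 0.25. IL1B and its decoy receptor had r = 0.68 in H-F (exact permutation adjusted p = 0.214, n = 8), with rho = 0.60. In J they had r = -0.22 (exact permutation adjusted p = 0.744, n = 7), with rho = -0.43.

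Whether a calf kept its rank over the weaning period was tested between d -14 and d 8. In J calves IL1R2 had r = 0.92 (exact permutation adjusted p = 0.0417 over 10 correlations, n = 7), with rho = 0.93. The log2 ratio had r = 0.89 (exact permutation adjusted p = 0.0417), with rho = 0.93. IL1B had r = 0.85 (exact permutation adjusted p = 0.0496), with rho = 0.86 (exact permutation adjusted p = 0.0794). None of these passed without the 2 calves farthest from the median (r = 0.95, 0.73 and 0.83, exact permutation adjusted p = 0.208, 0.283 and 0.208), which left 5 calves, while r itself changed little for IL1R2 and IL1B. CXCR2 and LTB4R of J calves had r = 0.54 and -0.46 (exact permutation adjusted p = 0.515 and 0.606), with rho = 0.57 and -0.21, and did not pass. In H-F calves the 5 correlations ranged from r = 0.01 for LTB4R to r = 0.33 for IL1R2 and none passed. The H-F values turned on single calves, since r was 0.61 for IL1B and 0.70 for CXCR2 without H-F calf 27 and 0.65 for IL1R2 without H-F calf 25. The lowest r with a calf left out was 0.047 for IL1B, -0.0306 for CXCR2 and 0.201 for IL1R2. For LTB4R r then ranged from -0.305 to 0.292 and for the log2 ratio from -0.236 to 0.514. None of the 5 passed with any H-F calf left out. The difference between breeds was not tested.

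**Figure D4:**
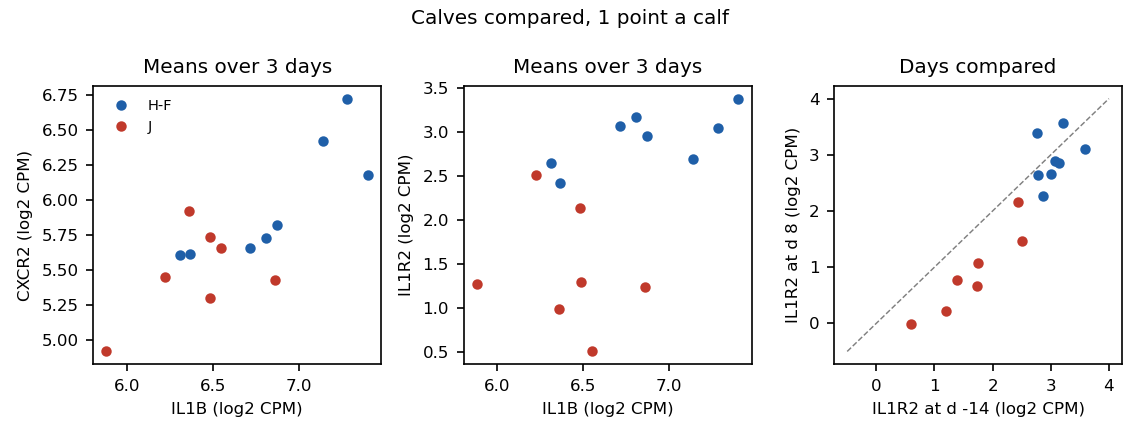
CXCR2 against IL1B (left) and IL1R2 against IL1B (middle) as means of log2 CPM over the 3 days, and IL1R2 at d 8 against d -14 (right, with the line of equal values), 1 point per calf with H-F blue and J red. Among the H-F calves CXCR2 and IL1B have r = 0.83, and all 7 J calves lie below the line of equal values for IL1R2.

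After the mean of each group of breed and day was removed, IL1B and CXCR2 had r = 0.81 over the 45 libraries, as a description of libraries that share calves. IL1R2 had r = 0.19 with IL1B, 0.03 with CXCR2 and 0.25 with LTB4R. The 5 named genes most like IL1B were CRISPLD2 (r = 0.89), SDS, which encodes a serine dehydratase (0.89), GPR77, an older symbol of the complement receptor gene C5AR2 (0.89), C5AR1, which encodes the receptor for the chemoattractant C5a (0.855), and DGAT2, an enzyme of triglyceride synthesis (0.81). The same 5 were named for CXCR2, led by GPR77 (r = 0.84), the most alike of all 12676 other genes.

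The genes most like IL1R2 were another set, namely PHYH, of peroxisomal fatty acid oxidation (r = 0.66), the pantetheinase VNN1 (0.66), the ribonuclease RNASE6 (0.64), NLRP12, an intracellular sensor of the NLR family (0.605), and FCN2, annotated as a ficolin (0.58). LTB4R had weaker ones: SIGLEC8 (r = 0.58), PGBD5 (0.55), TNFSF12 (0.54), ACRBP (0.53) and NLRP12 (0.51). Only genes that the study listed with a symbol could be named, all of them for a breed difference, and the first of them stood at place 1 of all genes for IL1B and CXCR2, 7 for IL1R2 and 6 for LTB4R.

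Of 100 symbols of the IL-1 and neutrophil pathways, 14 genes besides the 4 could be matched, all through the study's lists of genes that differ between breeds, so their breed values are a description too. On each day 12 of the 14 were lower in J, and the granule genes LCN2 and MPO were higher. IL18RAP, a chain of the IL-18 receptor in the IL-1 receptor family, had breed log2 fold changes of -0.92, -0.85 and -1.06 at d -14, d 1 and d 8. Those of the pentraxin PTX3, which IL-1 induces, were -2.33, -1.84 and -2.66, and those of the chemoattractant receptor C5AR1 -0.52, -0.62 and -0.80. For CXCL6, a ligand of CXCR2, they were -0.43, -0.87 and -0.74.

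None of the 14 passed between days without the calf term. Their median log2 fold change from d -14 to d 8 was 0.27 in H-F and 0.02 in J, against 0.01 and 0.00 over all genes tested, and 11 and 9 of the 14 were above 0. With calf as a block, 3 passed from d -14 to d 8 in H-F, as did 1.08% of all genes. PTX3 rose by 1.21 (adjusted p = 0.00908), while PTGS2, which encodes the inducible cyclooxygenase, changed by -0.78 (adjusted p = 0.00529) and C3AR1, a receptor for complement C3a, by -0.85 (adjusted p = 0.0279), all by the quasi-likelihood test. In J the blocked changes of these 3 were 0.93, -0.30 and -0.41 and did not pass.

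Markers of blood cells could be matched only in part, again from the study's lists, so they check the cell types weakly. Of the neutrophil markers, 3 of 20 were found, namely VNN2, LCN2 and MPO, with a summed level of 272.6 to 599.3 CPM in H-F and 168.6 to 368.3 CPM in J calves. VNN2 was lower in J, with log2 fold changes of -0.58, -0.67 and -0.79 at d -14, d 1 and d 8, whereas the granule genes LCN2 (0.78, 0.58 and 0.50) and MPO (1.11, 0.71 and 0.62) were higher. The summed level thus had the direction of VNN2 and not that of LCN2 and MPO, so it is no measure of the number of neutrophils. The summed level of 2 of 10 monocyte markers, MSR1 and FCN2, was 651.9 to 1696 CPM in H-F and 257.8 to 990.2 CPM in J calves. The listed marker was FCN1, matched to the gene that the study names FCN2, taken as an older symbol.

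Of the other cell types, 4 of 8 natural killer cell markers summed to 43.9 to 95.6 CPM in H-F and 31.3 to 54.1 CPM in J, 4 of 7 platelet markers to 233.6 to 833.6 and 70.8 to 359.4 CPM, and 6 of 7 B cell markers to 514.6 to 1231 and 880.5 to 1985 CPM. None of the T cell, eosinophil and basophil or erythroid markers was matched. From d -14 to d 8 in J, the median sum of the neutrophil markers went from 257.9 to 287.7 CPM and the mean sum from 267.2 to 273.7 CPM. As said above, this sum is no measure of the number of neutrophils. The median sum of the monocyte markers went from 566.9 to 623.6 CPM, while the mean sum went from 535.0 to 499.3 CPM. In the same comparison with calf as a block, the log2 fold changes of MSR1 and FCN2 were -0.31 and -0.13 (quasi-likelihood test, adjusted p = 0.567 and 0.815), and those of VNN2, LCN2 and MPO 0.06, 0.01 and -0.50 (adjusted p = 0.975, 0.994 and 0.807). The paper cites blood cell profiles from its larger study, which differed between breeds and showed no neutrophilia or lymphopenia after weaning. Those profiles were not among the data used here. The part of cell composition in the differences of the 4 genes between breeds and days was not tested.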

How the data were processed

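The authors sequenced poly(A) RNA of whole blood, aligned the reads to UMD3.1 with STAR, kept uniquely mapped reads and deposited HTSeq counts per Ensembl gene, raw and without normalization. The kit does not mark strand, and neither STAR's nor HTSeq's version is stated in the sources used. The 92 spike-ins were left out. J calf 85 was taken as the calf the study removed, because its removal gave the study's mean levels most closely (root mean square difference of 0.00304 on the log2 scale, against at least 0.051 for each other J calf).

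Genes above 1 CPM in at least 8 libraries were kept (12677). The test was edgeR 4.0.16 (R 4.3.3, TMM factors, quasi-likelihood F test, 6 group means), with calls at an adjusted p under 10% together with a 1.5-fold change, and at the adjusted p alone for the interaction. Calves pair the libraries: after group means were removed, libraries of the same calf correlated at 0.40 to 0.85 and those of different calves at -0.58 to 0.30, so calf was fitted as a block as an alternative. The biological coefficient of variation was 0.185 without and 0.102 with the block. Log2 CPM used a prior count of 2 and the log2 ratio 0.5 added to each count. Tests over calves were exact permutation tests (Python 3.11.15, scipy 1.17.1) with adjusted p under 0.05 as the threshold. The procedure was tested on simulated data.

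The members, gene lists and tests were chosen with earlier results of these data known. The rule for named genes was the 4 genes, list genes called between days, and for each gene the 5 named genes with the highest r. It also named other genes of both pathways (IL1A, IL1RN and CXCR1 among them) and would have left the lists unused without a reference table of symbols. No such table pairs these identifiers with symbols, so symbols came from the study's tables (697 of 800 listed genes), and genes without a match are not analysed here. Other alternatives were DESeq2 1.42.0, limma-voom (limma 3.58.1), edgeR's exact test, other normalizations, filters and thresholds, all 16 calves and each calf left out.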

Additional observations from a re-analysis of the deposited data

Results flagged for a closer look

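In H-F calves at d -14, calf 48 had 11.9 CPM of IL1R2, and the next highest calf had 9.15 CPM. The gap was 0.534 of the range of the 8 calves, above the limit of 0.526 for 8 samples. It was the only one of 30 groups of values tested to exceed its limit, and chance alone exceeds it in about 1 of 20 groups. The same calf had the lowest IL1B to IL1R2 ratio of that group, 7.40.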

How the results depend on the processing

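Because the comparison between breeds chose the 4 genes, their calls in it are not given under any setting. Between days, calf as a replicate block called 1 gene (IL1R2, d -14 to d 8 in J) and changed no other call of the 4. In alternatives added after the data were seen, the block without each J calf called 0 to 1 of the 4 and 14 to 29 of all genes (15 without J calf 60 and 17 without J calf 77), and with all 16 calves 42 of all genes.

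Over all genes, the calls between breeds ranged from 382 to 2174 at d -14 (520 in the main test), from 284 to 2282 at d 1 (473) and from 282 to 1589 at d 8 (397), with the highest number without a fold-change threshold. From d -14 to d 8 they ranged from 0 to 137 in H-F (9), from 0 to 26 in J (0) and from 16 to 77 over both breeds (31), with the highest number under the block. From d -14 to d 1 the block called 32 in H-F (0), 7 in J (0) and 25 over both breeds (1).

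For the IL1B to IL1R2 ratio, the change from d -14 to d 8 with a calf left out was 0.871 to 1.06 in J and 0.292 to 0.616 in H-F. The differences between breeds were 0.346 to 0.669 for d -14 to d 8 and 0.647 to 0.959 for d 1 to d 8. For IL1B with CXCR2 in H-F, r was 0.816 to 0.884 with a calf left out, 0.901 without the 2 farthest calves, and rho 0.929. Between d -14 and d 8 in J, r with a calf left out was 0.754 to 0.918 for IL1B (rho 0.857), 0.899 to 0.943 for IL1R2 and 0.836 to 0.922 for the log2 ratio, and 0.831, 0.952 and 0.73 without the 2 farthest calves. At 7 or 8 calves these exact tests can lose a call by the smaller number alone.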

Other observations

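H-F calf 27 had the lowest IL1B and CXCR2 levels of all H-F calves at d 8, 47.2 and 29.2 CPM, while its IL1R2 level of 6.26 CPM lay within the range of the others. Its ratio of IL1B to IL1R2 went from 14.3 at d -14 to 19.5 at d 1 and 7.53 at d 8. In J calf 85 IL1B changed by 2.11 on the log2 scale from d -14 to d 1 and CXCR2 by 1.67, both above each of the other calves, and from d 1 to d 8 they changed by -1.67 and -1.04.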
